A study of Mus musculus with 2 samples.

Results

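The tropomyosins, tropomodulins and leiomodins of the embryonic mouse heart were taken as the gene rows with the symbols Tpm1, Tpm2, Tpm3, Tpm4, Tmod1, Tmod2, Tmod3, Tmod4, Lmod2 and Lmod3. All 10 symbols were present in both deposited tables, each as a single row, out of 34236 symbols in all. The tables come from RNA sequencing of 2 libraries, replicate 1 and replicate 2, of heart at embryonic day 12.5, on a mixed strain background of C57BL/6 and 129S6, with no treatment. Both libraries belong to 1 group, so there is no contrast between conditions. Whether they came from separate embryos, pools or litters is not stated in the labels, and the spread between them may be technical.

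Tropomyosins are coiled-coil dimers that lie end to end along actin filaments. In striated muscle they hold the troponin complex and, with it, set when myosin can reach actin. Tropomodulins cap the slow-growing (pointed) end of the tropomyosin-coated filament and stop it from lengthening, while leiomodins, which are related to them, bind near the same end, start new filaments and favour longer ones. Each family has members of muscle and members of other cells, and a single tropomyosin gene can give rise to both kinds by alternative promoters and splicing.

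Values are FPKM, fragment numbers scaled to transcript length and to library size, so that levels of different genes can be set beside each other. They are given for each library and as mean ± SD (n = 2). Over all genes FPKM summed to 388230 in replicate 1 and to 382561 in replicate 2. How many reads lie behind a value is unknown, but low values placed replicate 1 at 1.33 times the depth of replicate 2. No p-values are given, because an exact two-sided sign-flip test on 2 libraries cannot go below 0.5. In its place, a log2 ratio between genes, computed after adding 1 FPKM, was called beyond the spread when it had the same sign in both libraries and exceeded the 95th percentile of the differences between the libraries among genes within 2-fold of the lower gene's level. All 8 listed cardiomyocyte genes reached 1 FPKM in both libraries, beside 52.4% of protein-coding symbols. Their levels summed to 7714 FPKM in replicate 1 and 7279 FPKM in replicate 2. The list was chosen with earlier results of these data known, so this is no test of the heart label.

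Of the 10 genes, 8 reached 1 FPKM in both libraries, against 36.2% of all symbols and 52.4% of protein-coding symbols. The median level of the 10 genes was 5.40 on the log2(FPKM + 1) scale, beside 1.58 over the 22757 symbols above 0 in at least 1 library. Tpm1 led by a wide margin, and Tpm4, Tmod1, Tpm2, Tpm3, Lmod2, Tmod3, Lmod3, Tmod2 and Tmod4 followed in that order. The order was drawn from these same values, so the direction of each step was set by the sorting. Of the 9 steps between neighbours in this order, 8 were beyond the spread between the libraries, a description of the gaps and no test. The exception was the last, between Tmod2 and Tmod4, both of which stayed under 1 FPKM. This spread is that of the same gene between the libraries and does not cover errors that differ from gene to gene. The step between Tpm2 and Tpm3 turned round when a copy of Tpm3 was added to it, as described below. In RNA from whole tissue, fewer cells of a type and less RNA per cell cannot be told apart.

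**Figure D1:**
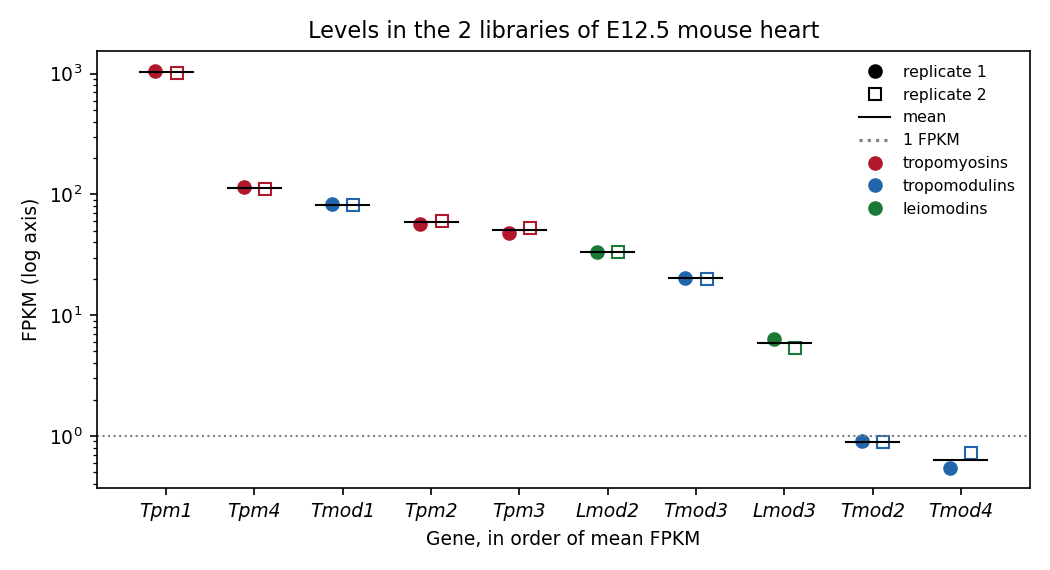
FPKM on a log axis of the 10 genes in each library, in order of mean FPKM, with filled circles for replicate 1, open squares for replicate 2 and a short line at the mean. Tpm1 stands highest at 1061 and 1012 FPKM, Tpm4 at 112.8 FPKM is next, and Tmod2 and Tmod4 lie under the dotted line at 1 FPKM.

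Tpm1 (ENSMUSG00000032366) encodes alpha-tropomyosin, the principal tropomyosin of the heart muscle sarcomere, and the gene is mutated in some inherited cardiomyopathies. It lies on chromosome 9 from 66870397 to 66897213 on the minus strand (mm9). Its level was 1061 FPKM in replicate 1 and 1012 FPKM in replicate 2, a mean of 1037 ± 34.5 FPKM. This placed it 23rd of all symbols and 22nd of the protein-coding ones. Of its partners on the filament, the cardiac troponin T gene Tnnt2 ranked 20th at 1261 ± 46.7 FPKM. The troponin C gene Tnnc1 ranked 24th at 1002.5 ± 24.8 FPKM, and the troponin I gene Tnni1 28th at 917 FPKM. Others lay further off, among them Tnni3, 91st at 403 FPKM, Tnnt1, 245th at 174 FPKM, and the cardiac actin Actc1, 6th at 4314 FPKM. Tpm1 held 82.8% of the summed tropomyosin FPKM in replicate 1 and 82.0% in replicate 2. The annotation used here (GENCODE M21) lists 21 transcripts of Tpm1, 16 of them protein-coding, with coding lengths of 735 to 978 bases. The deposited value is a single number for the gene, so muscle and cytoskeletal isoforms are not separated in it.

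Tpm4 (ENSMUSG00000031799) encodes a tropomyosin of the cytoskeleton in non-muscle cells, among them platelets, and was the second highest gene. It measured 115 FPKM in replicate 1 and 110.5 FPKM in replicate 2 (112.8 ± 3.27). Tpm1 exceeded it 9.22-fold in replicate 1 and 9.16-fold in replicate 2. Its log2 ratio to Tpm2 was 0.93 ± 0.08 and to Tpm3 1.15 ± 0.12, both beyond limits of 0.16. The gene lies on chromosome 8 from 74658874 to 74677041 on the plus strand, and rows of 2 long noncoding RNAs overlap it on the other strand. These are Gm17371, over 3432 bases and at 0.296 FPKM on average, and Gm16091, over 5542 bases and at 1.66 FPKM. Both are low beside Tpm4. Megakaryocyte and platelet markers, 4 of 6 at 1 FPKM in both libraries, summed to 30.6 FPKM in replicate 1 and 23.1 FPKM in replicate 2, and their part in the Tpm4 level was not tested.

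Tpm2 (ENSMUSG00000028464) encodes beta-tropomyosin, known from skeletal and smooth muscle and, in the mouse, as more abundant in the embryonic than in the adult heart. It measured 57.3 FPKM in replicate 1 and 59.8 FPKM in replicate 2 (58.6 ± 1.73), on chromosome 4 from 43527583 to 43536637, minus strand. Its share of tropomyosin FPKM was 4.66 ± 0.26%. Tpm1 exceeded it 18.5-fold in replicate 1 and 16.9-fold in replicate 2, a log2 ratio of 4.12 ± 0.09 against a limit of 0.16. Genes listed for smooth muscle were present beside it, 6 of 8 at 1 FPKM in both libraries with sums of 619 FPKM in replicate 1 and 636 FPKM in replicate 2, of which Acta2 alone gave 393 FPKM on average, while Myh11, a myosin heavy chain of smooth muscle, was at 0.496 FPKM. Their part in the Tpm2 level was not tested.

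Tpm3 (ENSMUSG00000027940) encodes a tropomyosin of slow skeletal muscle fibres and, through other transcripts, a widely expressed cytoskeletal form. Its row, on chromosome 3 from 89876571 to 89904824, plus strand, held 48.3 FPKM in replicate 1 and 52.4 FPKM in replicate 2 (50.3 ± 2.89). It was thus the lowest of the 4 tropomyosins in both libraries. Taken as deposited, Tpm2 exceeded Tpm3 by 0.22 ± 0.04 log2 units, beyond the level-matched limit of 0.16 but not beyond the single limit of 0.32 drawn from all genes at a mean of at least 1 FPKM. This order depends on a further row of the tables. Tpm3-rs7, a copy with a single annotated exon and annotated as protein-coding on chromosome 14 from 113713830 to 113715935, held 22.2 FPKM in replicate 1 and 14.3 FPKM in replicate 2 (18.2 ± 5.55).

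The copy is nearly the same sequence as Tpm3. Over the 744 coding bases of a Tpm3 transcript for a short tropomyosin, the coding sequence of Tpm3-rs7 differs at 3 bases, an identity of 99.6%, and the whole transcripts are 99.3% identical over 2103 aligned bases. All 3 differences fall within the first 150 coding bases, shown here on the coding strand from GENCODE M21 (GRCm38) because they are the only coding positions at which that transcript and the copy differ. Capitals mark the differing bases.
Tpm3: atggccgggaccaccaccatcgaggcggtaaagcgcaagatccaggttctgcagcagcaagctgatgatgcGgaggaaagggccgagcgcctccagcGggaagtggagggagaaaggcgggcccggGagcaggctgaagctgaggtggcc
Tpm3-rs7: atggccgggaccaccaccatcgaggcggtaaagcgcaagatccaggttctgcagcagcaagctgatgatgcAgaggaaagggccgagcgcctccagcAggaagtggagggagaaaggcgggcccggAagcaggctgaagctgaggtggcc

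Of the distinct 50-base runs in the annotated Tpm3-rs7 transcript, 69.4% also occur in Tpm3 transcripts, and 49.8% of its 100-base runs do so. Seen from Tpm3, whose 16 annotated transcripts hold sequence that the copy lacks, the shares were 23.2% and 15.8%. Neither read length nor the treatment of reads matching both genes is known here, so the split of reads between the rows is uncertain. Between the libraries the rows moved in opposite directions: Tpm3 was lower in replicate 1 by 0.11 log2 units, and Tpm3-rs7 was higher by 0.60, a difference larger than that of all but 1.12% of the 4898 genes at its level. The ratio of Tpm3 to Tpm3-rs7 was 2.18 in replicate 1 and 3.66 in replicate 2. Their sum was 70.4 FPKM in replicate 1 and 66.7 FPKM in replicate 2, a difference of 0.08 log2 units.

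With both rows added, a setting chosen after the data were examined, Tpm3 stood at 68.5 ± 2.66 FPKM and the order against Tpm2 turned round. The log2 ratio of Tpm2 to Tpm3 became -0.22 ± 0.10, past the limit of 0.16 in size. The ratio of Tpm4 to the summed Tpm3 was 0.71 ± 0.01, and Tpm1, Tpm4 and their order were not affected. Which of Tpm2 and Tpm3 was higher is thus not fixed by these values.

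**Figure D2:**
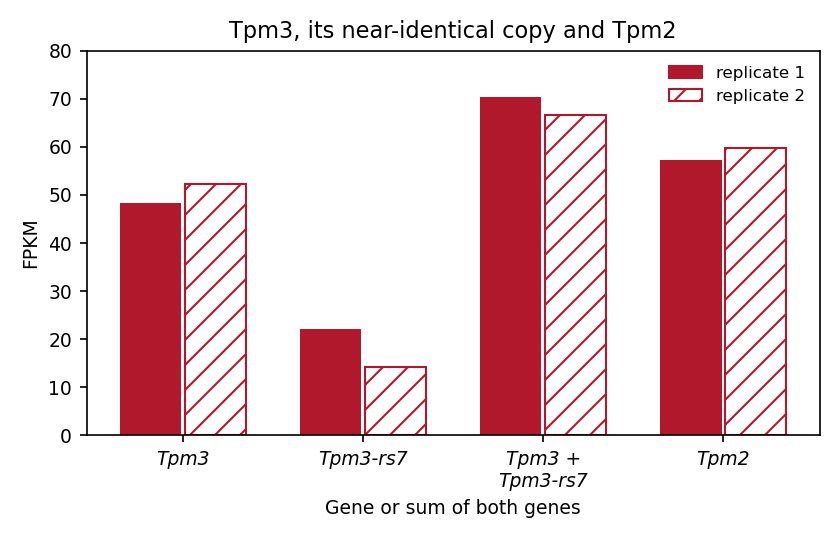
FPKM of Tpm3, Tpm3-rs7, their sum and Tpm2, with filled bars for replicate 1 and hatched bars for replicate 2. Tpm2 at 57.3 and 59.8 FPKM lies above the Tpm3 row in each library and below the sum of Tpm3 and its copy at 70.4 and 66.7 FPKM.

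The other tropomyosins did not share sequence with each other to that degree. The highest identity between coding sequences of different tropomyosin members lay between 72.2% for Tpm2 and Tpm4 and 80.4% for Tpm1 and Tpm3, and 0 of the 45 pairs among the 10 genes shared any 50-base run. Tpm1 and Tpm2 shared no 50-base run with any other annotated gene. Tpm4 shared 15.7% of its runs with 2 other genes, chiefly the pseudogene Gm7809, whose row held 3.40 FPKM in replicate 1 and 5.003 FPKM in replicate 2. That level is small beside Tpm4.

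Tmod1 (ENSMUSG00000028328) encodes the tropomodulin of striated muscle and of red blood cells. It measured 83.1 FPKM in replicate 1 and 81.8 FPKM in replicate 2 (82.4 ± 0.95), on chromosome 4 from 46051807 to 46128904, plus strand, and ranked 638th of all symbols. It made up 79.3% of the summed tropomodulin FPKM in replicate 1 and 79.1% in replicate 2. At its 3' end 1287 bases of its locus overlap Tstd2 on the opposite strand, whose row held 13.7 FPKM in replicate 1 and 11.98 FPKM in replicate 2. Of the annotated 50-base runs of Tmod1, 31.4% also lie in Tstd2, and some of these in further genes. The library kit does not mark strand, so reads from the overlap cannot be assigned to one gene or the other and the Tmod1 level is uncertain to that extent. Erythroid markers, 9 of 9 at 1 FPKM in both libraries, summed to 23503 FPKM in replicate 1 and 22505 FPKM in replicate 2, with the embryonic globin Hbb-y highest at 15962 FPKM on average, and their part in the Tmod1 level was not tested.

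Tmod3 (ENSMUSG00000058587), the widely expressed tropomodulin, followed at 20.3 FPKM in replicate 1 and 19.98 FPKM in replicate 2 (20.1 ± 0.21). Tmod1 exceeded it 4.10-fold in replicate 1 and 4.09-fold in replicate 2, a log2 ratio of 1.98 against a limit of 0.20. Tmod3 lies on chromosome 9 from 75345603 to 75407464, minus strand, and its nearest neighbour on the same strand, 5964 bases away, is Tmod2. The neighbours thus differ widely in level.

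Tmod2 (ENSMUSG00000032186) encodes the tropomodulin of neurons. It measured 0.899 FPKM in replicate 1 and 0.892 FPKM in replicate 2 (0.895 ± 0.0046), so that Tmod3 exceeded it 22.6-fold in replicate 1 and 22.4-fold in replicate 2. Markers listed for neurons were low but present, 5 of 9 at 1 FPKM in both libraries, with sums of 11.8 FPKM in replicate 1 and 12.4 FPKM in replicate 2, the highest being Tubb3 at 3.81 FPKM. Their part in the Tmod2 level was not tested. Tmod4 (ENSMUSG00000005628), the tropomodulin of skeletal muscle, was the lowest of the 10 genes, at 0.542 FPKM in replicate 1 and 0.725 FPKM in replicate 2 (0.634 ± 0.13). It lies in a crowded stretch of chromosome 3 (94928398 to 94933131, plus strand), 1425 bases after Vps72, which was at 32.2 FPKM, and 510 bases from Scnm1 on the other strand, at 12.2 FPKM. The log2 ratio of Tmod2 to Tmod4 was 0.30 in replicate 1 and 0.13 in replicate 2, a mean of 0.22 ± 0.12 within the limit of 0.49, so their order was not resolved. With a pseudocount of 0.1 FPKM the mean ratio was 0.45, also within the spread found with that pseudocount. Tmod1 was 153 times Tmod4 in replicate 1 and 112.7 times in replicate 2.

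Lmod2 (ENSMUSG00000029683), the leiomodin best known from heart muscle, measured 33.6 FPKM in each library (33.6 ± 0.05). It lies on chromosome 6 from 24547771 to 24555414, plus strand, has a single annotated transcript of 1976 bases and shares no 50-base run with another gene. Lmod3 (ENSMUSG00000044086), which is required in skeletal muscle and mutated in human nemaline myopathy, measured 6.40 FPKM in replicate 1 and 5.37 FPKM in replicate 2 (5.88 ± 0.73), on chromosome 6 from 97188522 to 97202774, minus strand. Lmod2 exceeded Lmod3 5.25-fold in replicate 1 and 6.26-fold in replicate 2, a log2 ratio of 2.33 ± 0.15 against a limit of 0.32. The remaining leiomodin gene Lmod1, which is no member of the set and is known from smooth muscle, was at 0.796 FPKM in replicate 1 and 0.654 FPKM in replicate 2. Leiomodin RNA was thus mostly Lmod2, at 84.0% of Lmod2 plus Lmod3 in replicate 1 and 86.2% in replicate 2.

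The genes linked to skeletal muscle stood at different levels here. Lmod3 was at 5.88 FPKM and Tmod4 at 0.634 FPKM on average. Of the 12 skeletal muscle markers 4 reached 1 FPKM in both libraries, with sums of 27.9 FPKM in replicate 1 and 24.3 FPKM in replicate 2, and Tnni2 gave most of this at 16.2 FPKM. No marker was at 0 in both libraries, but the muscle stem cell gene Pax7 was at 0.00579 FPKM, Myf5 at 0.0145 FPKM and the skeletal calcium release channel Ryr1 at 0.0254 FPKM. The part of skeletal muscle cells in the levels of Lmod3 and Tmod4 was not tested.

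Set beside the other genes of the thin filament, summed tropomyosin RNA was 0.875 to 1.26 times that of each troponin subunit. The 4 tropomyosins summed to 1282 FPKM in replicate 1 and 1235 FPKM in replicate 2. Tpm4, a cytoskeletal form, is part of that sum at 112.8 FPKM. The tropomyosin sum was 0.875 ± 0.017 times the sum of the troponin T genes and 0.942 ± 0.00043 times that of the troponin I genes. It was 1.26 ± 0.0021 times that of the troponin C genes and 0.333 ± 0.0023 times that of all 8 troponins. It was 0.222 ± 0.0024 times the sum of the 6 actins, of which Actc1, the cardiac actin, gave 4314 FPKM, and 0.262 ± 0.0023 times without the cytoplasmic Actb and Actg1. These are ratios of RNA and say nothing of protein amounts.

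The tropomodulins and leiomodins together summed to 145 FPKM in replicate 1 and 142 FPKM in replicate 2, which is 0.114 ± 0.0017 times the summed tropomyosins. Gene by gene the ranges overlapped, since Tmod1 lay above Tpm2 and Tpm3. The tropomodulins and leiomodins were together 0.585 ± 0.010 times the sum of the capping protein genes Capza1, Capza2 and Capzb. Capping protein closes the other (barbed) end of the filament. Its sum adds genes of different subunits, so the ratio does not compare numbers of capped ends. The leiomodins were 0.379 ± 0.0028 times the tropomodulins. Of 14 other genes listed for filament length and ends, 11 reached 1 FPKM in both libraries, the highest being Capzb at 123.0 FPKM, the nebulin relative Nebl at 99.1 FPKM, the muscle cofilin Cfl2 at 91.4 FPKM and Capza2 at 88.7 FPKM. The 3 below were Lmod1, Klhl40, a stabiliser of Lmod3 in skeletal muscle, at 0.454 FPKM, and Neb, the giant nebulin of skeletal thin filaments, at 0.207 FPKM. Klhl41, a relative of Klhl40, was at 12.9 FPKM.

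**Figure D3:**
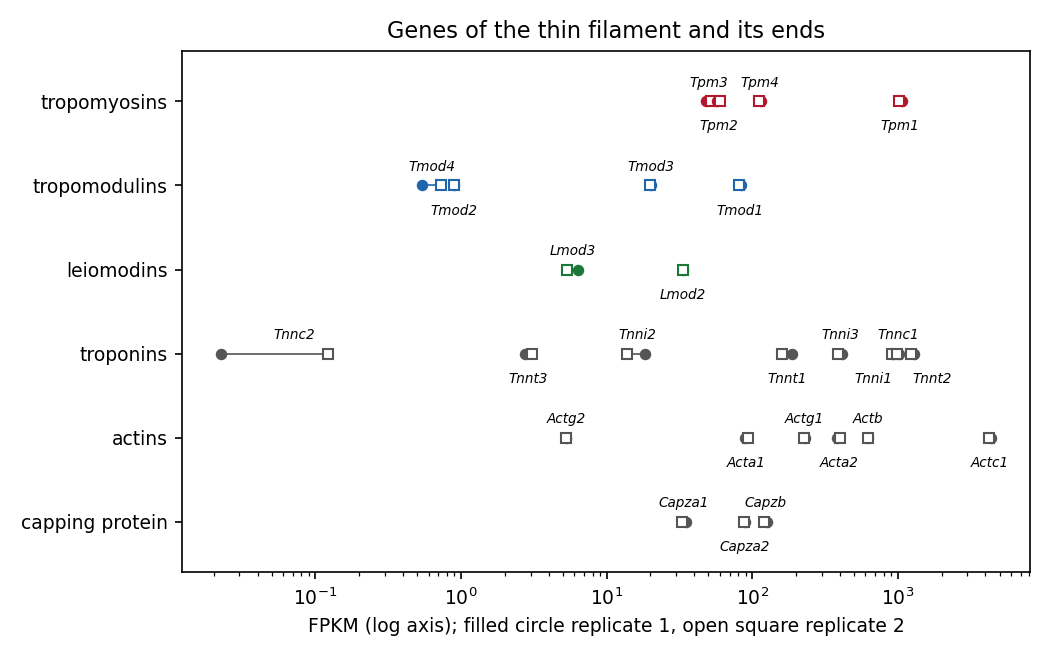
FPKM on a log axis of each tropomyosin, tropomodulin, leiomodin, troponin, actin and capping protein gene, with filled circles for replicate 1 and open squares for replicate 2 joined by a line. Tpm1 at 1037 FPKM lies among the high troponins and below Actc1 at 4314 FPKM, whereas Tmod1 at 82.4 FPKM and Lmod2 at 33.6 FPKM lie beside Capza2 at 88.7 FPKM and Capza1 at 33.97 FPKM.

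The libraries gave nearly the same values for these genes. At a mean of at least 5 FPKM, 0 of 8 genes differed 2-fold, beside 0.504% of the 8924 symbols at that level, so that the count of 0 is near the background. The difference between replicate 1 and replicate 2 on the log2(FPKM + 1) scale ran from -0.16 for Tmod4 to 0.22 for Lmod3. In replicate 1, 6 genes were higher and 4 lower. The share over all symbols is not given for this split, so nothing is read from it. Each of the 10 lay inside the level-matched limit, which was 0.32 for Lmod3, 0.49 for Tmod4 and 0.16 for Tpm3. That limit is the 95th percentile over all genes at the level, so most genes lie inside it by construction. The copy Tpm3-rs7, outside its limit of 0.20, was the exception among the rows of these families.

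**Figure D4:**
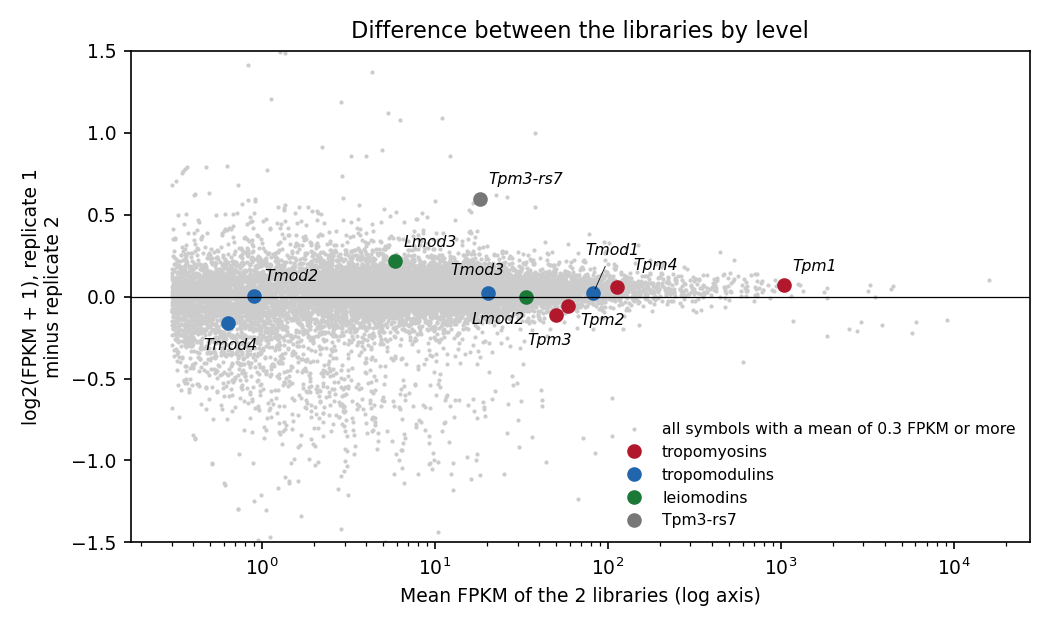
Difference of log2(FPKM + 1) between replicate 1 and replicate 2 against mean FPKM (log axis) for 15113 symbols at a mean of at least 0.3 FPKM, in light grey, with the 10 genes in colour and Tpm3-rs7 in dark grey. 50 symbols lie beyond the axis limits of 1.5. The 10 genes lie between -0.16 and 0.22, and Tpm3-rs7 lies above them at 0.60.

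Promoter sequences of RefSeq on GRCm38.p6 were matched for 8 of the 10 genes, Tmod3 and Lmod3 being the others. Tpm3 and Tmod2 had 2 listed promoters each, and each of the rest, Tpm1 included, had 1. Promoters not listed there were not searched. The 250 bases before the start were searched on both strands for 6 motifs of muscle and basal promoters. The MCAT motif (CATTCC), bound by TEAD factors, occurred in 2 of the 10 windows, those of Tpm1 and Tmod1, beside 12.6% of all 32851 promoters of that length. With only 10 windows, a count of 2 is near that share. Both windows are shown with the match in capitals, read along the gene. The Tpm1 promoter is at chr9:67049214-67049463 on the minus strand, with the match starting 56 bases before the start, and the Tmod1 promoter at chr4:46038972-46039221 on the plus strand, with the match 163 bases before it.
Tpm1: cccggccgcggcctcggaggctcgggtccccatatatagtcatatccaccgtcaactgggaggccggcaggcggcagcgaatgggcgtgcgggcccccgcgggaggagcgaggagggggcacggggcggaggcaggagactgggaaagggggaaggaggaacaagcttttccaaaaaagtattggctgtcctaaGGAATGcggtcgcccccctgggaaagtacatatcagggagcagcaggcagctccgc
Tmod1: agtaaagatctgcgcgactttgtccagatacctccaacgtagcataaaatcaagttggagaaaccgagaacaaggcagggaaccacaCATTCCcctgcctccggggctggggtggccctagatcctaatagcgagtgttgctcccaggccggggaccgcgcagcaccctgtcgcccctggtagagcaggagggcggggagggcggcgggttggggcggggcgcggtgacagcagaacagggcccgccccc

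The GATA motif (AGATAA, in 9.99% of promoters) occurred once, in the first Tpm3 promoter, 32 bases before the start. An E-box (CANNTG, in 66.2% of promoters) occurred in 8 of the 10 windows, not in those of Tpm4 and Tmod1. The TATA box (TATAAA, 12.4%), the CArG box (1.47%) and the MEF2 motif (2.92%) occurred in 0 of the 10 windows. The Lmod2 window held an E-box and none of the others. GC content ran from 48.8% in the first Tpm3 promoter to 78.8% in that of Tpm4, with a median of 52.4% over all promoters. A match describes the letters of the window and was not tied to any level here.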

How the data were processed

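Per the labels' protocols, total RNA of the hearts was extracted with Trizol and libraries were made with the TruSeq RNA v2 kit. The authors deposited 1 table of FPKM values per sample. GSNAP, Cufflinks, Cuffnorm, mm9 and hg19 appear, without roles, in the submitters' processing notes. Not given in the sources used here are the gene annotation, the strand setting, the read length and the rule for multiple matches. Positions are the files' own on mm9, where the last gene of chromosome 1 ends at 197054592. From these values, 37620 rows were summed by symbol to 34236 symbols, and 3 listed symbols were found through gene IDs under older symbols (Klhl40 as Kbtbd5, Klhl41 as Kbtbd10, Map2 as Mtap2). Log2 values used a pseudocount of 1 FPKM, which understates differences of low genes. No filter by level was applied to the members except a mean of 5 FPKM for 2-fold differences. Sets of other genes were limited by level where stated. Absolute depth is unknown, so no counting interval is given. Among 2828 genes under 0.1 FPKM in both libraries, 478 had a ratio within 0.05 log2 units of 1.33. All members were named, with listed genes and neighbouring rows by a set rule. The members and lists were chosen with earlier results of these data known. Shared runs of 50 and 100 bases, on both strands, and coding identity came from GENCODE M21 transcripts (GRCm38). Alternatives were the highest row per symbol, rescaling, protein-coding symbols only, other pseudocounts and limits, each library alone, and Tpm3 with Tpm3-rs7. Steps were tested on simulated data. Python 3.11.15, NumPy 2.4.6, pandas 2.3.3, Biopython 1.88 and Matplotlib 3.10.9 were used.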

Additional observations from a re-analysis of the deposited data

How the results depend on the processing

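No paired analysis was possible because both libraries belong to 1 group. Adding Tpm3-rs7 to Tpm3, chosen after the data were examined, turned the log2 ratio of Tpm2 to Tpm3 to -0.22 and moved the median level to 5.50, the Tpm1 share of tropomyosins to 81.2%, and the ratio of tropomyosins to actins to 0.226 and to troponins to 0.338. Leaving out Actb and Actg1 moved the ratio to actins to 0.262. With 1 limit from all genes, the ratio of Tpm2 to Tpm3 at 0.22 was no longer beyond the spread. That limit left 7 of 9 neighbouring pairs beyond the spread, in place of 8. All 10 genes reached 0.5 FPKM in both libraries and 8 reached 5 FPKM. No share of all symbols is given at these cut-offs. The counts show only how the count of 8 at 1 FPKM depends on the cut-off. Each library alone lies within 1 SD of a mean of 2 by construction, which says nothing of stability.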
